A study of Mus musculus with 3 samples.

Results

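Chromatin at the alpha globin cluster, the beta globin cluster and the Klf1 gene was described in primary hematopoietic stem cells of 24-month-old C57BL/6 mice. The bone marrow cells bore the phenotype SP-KSL-CD150+, and no treatment or genetic change is named for any library. H3K27ac and H3K4me1 were each measured by chromatin immunoprecipitation sequencing in 1 library, labelled a technical replicate of the first biological replicate, and the accompanying input library was not analysed here. Each value below therefore comes from 1 library with no replicate, and no p-value is given. The loci were set by position on the mouse build mm9, and every called region that touched their limits was taken. The alpha globin limits were chr11:32120000-32220000, the beta globin limits chr7:110940000-111090000 and the Klf1 limits chr8:87410000-87440000. They held 32 of the 93413 H3K27ac regions and 48 of the 155027 H3K4me1 regions, 80 of 248440 in all. The alpha globin locus had 11 H3K27ac and 14 H3K4me1 regions, the beta globin locus 18 and 24, and the Klf1 locus 3 and 10.

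Adult hemoglobin is built from alpha chains, encoded in the mouse by Hba-a1 and Hba-a2, and beta chains, encoded by Hbb-b1 and Hbb-b2 or, in C57BL/6 mice, by the corresponding alleles Hbb-bs and Hbb-bt. These genes are expressed at very high levels in maturing red cells and are markers of that lineage. Enhancers of the alpha genes lie in and beside Nprl3, a neighbouring gene that regulates mTORC1 signalling, and the beta genes are driven by a distant locus control region. Klf1 is a zinc finger transcription factor of red cell precursors that binds CACCC boxes, including that of the adult beta globin promoter. H3K27ac is found at active promoters and enhancers. H3K4me1 is found at enhancers, including ones not yet active, and beside active promoters.

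In the RefSeq table, which is on assembly GRCm38.p6, the alpha cluster runs in the order Rhbdf1, Mpg, Nprl3, Hba-x, Hba-a1, Hbq1b, Hba-a2, Hbq1a. Hba-x encodes the embryonic zeta chain, and Hbq1b and Hbq1a are theta globin genes. The beta cluster lies among olfactory receptor genes, between Olfr67 and Olfr66. Its protein-coding genes run in the order Hbb-bt, Hbb-bs, Hbb-bh2, Hbb-bh1, Hbb-y, and Hbb-y, for example, encodes an embryonic chain. The pseudogenes Gm15115 and Hbb-bh3 lie between Hbb-bs and Hbb-bh2. Klf1 lies between Gcdh, an enzyme of lysine breakdown, and Dnase2a, a nuclease of lysosomes. No annotation of mm9 was used, so the regions below carry positions and are not assigned to a gene, promoter or named enhancer within each locus. For the same reason the stem cell label was not checked against marker genes.

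The promoters of the adult globin genes and of Klf1 are shown because the copies within a cluster differ in how far their sequences can be told apart, which bears on where reads can be placed. Each runs from 250 bases before the start to 50 bases from it on, 5′ to 3′, from RefSeq on GRCm38.p6, whose positions cannot be set beside those of the mm9 regions. Of the 5 genes Hba-a1, Hba-a2, Hbb-b1, Hbb-b2 and Klf1, 3 were matched in the promoter table, and those not matched were Hbb-b1 and Hbb-b2. Capitals mark AGATAA or TGATAA, forms of the letters bound by GATA factors, CCACACCC, a CACCC box, and CCAAT, each on either strand.
Hba-a1 (chr11:32283422-32283721, plus strand): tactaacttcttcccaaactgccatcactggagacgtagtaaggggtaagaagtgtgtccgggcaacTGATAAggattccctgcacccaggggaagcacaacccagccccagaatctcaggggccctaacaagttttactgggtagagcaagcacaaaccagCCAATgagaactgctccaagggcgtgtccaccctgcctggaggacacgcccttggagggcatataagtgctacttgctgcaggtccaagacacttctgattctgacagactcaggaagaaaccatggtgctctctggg
Hba-a2 (chr11:32296242-32296541, plus strand): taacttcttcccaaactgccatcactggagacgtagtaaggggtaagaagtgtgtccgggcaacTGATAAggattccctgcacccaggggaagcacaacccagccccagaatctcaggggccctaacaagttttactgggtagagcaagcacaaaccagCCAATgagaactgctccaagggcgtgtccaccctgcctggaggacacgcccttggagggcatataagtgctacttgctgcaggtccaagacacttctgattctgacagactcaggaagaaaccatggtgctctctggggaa
Hbb-bs (chr7:103827879-103828178, minus strand): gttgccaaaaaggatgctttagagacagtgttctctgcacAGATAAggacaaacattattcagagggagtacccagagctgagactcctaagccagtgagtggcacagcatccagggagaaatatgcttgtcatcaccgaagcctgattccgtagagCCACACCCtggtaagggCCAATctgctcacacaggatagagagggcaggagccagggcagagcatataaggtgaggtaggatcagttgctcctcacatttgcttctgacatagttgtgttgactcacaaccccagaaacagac
Hbb-bt (chr7:103813874-103814173, minus strand): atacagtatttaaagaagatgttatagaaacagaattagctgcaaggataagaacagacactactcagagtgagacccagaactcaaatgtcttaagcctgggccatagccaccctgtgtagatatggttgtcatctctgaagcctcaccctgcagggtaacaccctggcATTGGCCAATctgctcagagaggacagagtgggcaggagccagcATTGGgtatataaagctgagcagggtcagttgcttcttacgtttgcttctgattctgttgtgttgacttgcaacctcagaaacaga
Klf1 (chr8:84901732-84902031, plus strand): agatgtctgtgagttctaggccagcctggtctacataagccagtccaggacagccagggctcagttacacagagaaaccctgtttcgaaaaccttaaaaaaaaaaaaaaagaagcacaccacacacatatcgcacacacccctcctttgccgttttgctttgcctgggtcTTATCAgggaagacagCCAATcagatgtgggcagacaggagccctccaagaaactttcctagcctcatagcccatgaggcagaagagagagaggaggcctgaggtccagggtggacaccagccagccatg

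The promoters of Hba-a1 and Hba-a2 shared an unbroken identical run of 297 of 300 bases, so a read from within it fits both copies. Hbb-bs and Hbb-bt were less alike, with 226 of 289 aligned bases identical (78.2%) and a longest identical run of 14 bases. CCACACCC was found in Hbb-bs, 93 to 86 bases before the start, and in 3.56% of all 32851 promoters of the same length. This exact form was not found in the windows of Hbb-bt, Hba-a1, Hba-a2 or Klf1. The shorter letters CACCC do occur in each of those windows and were not counted, so a CACCC box of another form is not excluded there. TGATAA, searched after the sequences had been seen, was found in Hba-a1, Hba-a2 and Klf1 and in 9.05% of all promoters, and AGATAA was found in Hbb-bs and in 11.2% of all. Neither was found in Hbb-bt. The shorter letters GATA do occur in its window and were not counted, so a match of another form is not excluded there. CCAAT was present in each of the 5 printed promoters and in 37.4% of all. CANNTG, an E box, was present in the same 5 promoters and in 72.3% of all, and ATAAA on the gene's strand in Hbb-bt among them and in 26.0% of all. A match is a description of the letters and does not show binding. In Hba-a1 and Hba-a2 the CANNTG match overlaps TGATAA.

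All 3 loci carried both marks in these stem cells, and each was marked over more of its length than the median stretch of the autosomes. H3K27ac covered 5.04% of the alpha globin locus, 6.90% of the beta globin locus and 6.75% of the Klf1 locus. The median autosomal window of the same length was covered over 0.465% at 100 kb, 0.615% at 150 kb and 0% at 30 kb, and the mean window over 2.24% at each length. H3K4me1 covered 15.4% of the alpha globin locus, 20.5% of the beta globin locus and 30.8% of the Klf1 locus, against window medians of 2.47% at 100 kb, 2.87% at 150 kb and 0.703% at 30 kb and a mean of 6.95%. The alpha globin locus was matched or exceeded in H3K27ac coverage by 14.4% of the 24696 windows of 100 kb, and in H3K4me1 coverage by 15.4%. The beta globin locus was matched or exceeded by 9.21% of the 16460 windows of 150 kb for H3K27ac and by 9.66% for H3K4me1. The Klf1 locus was matched or exceeded by 10.5% of the 82341 windows of 30 kb for H3K27ac and by 5.96% for H3K4me1. Many other windows were therefore marked as densely. The place depends on the measure: by highest fold, 30.0% of windows matched or exceeded the beta globin locus for H3K27ac and 4.56% for H3K4me1, and 2.24% matched or exceeded the alpha globin locus for H3K4me1. By highest fold the Klf1 locus was matched or exceeded by 6.21% for H3K27ac and 11.2% for H3K4me1, and by number of H3K4me1 regions by 2.65%. These places are a description of 1 library per mark. The windows include unmappable sequence, which lowers the median, the mean and the shares of windows that match or exceed a locus. They were tiled without regard to genes, whereas the loci were set around genes, and no windows matched for genes were compared. Of the 30-kb windows, 60.0% held no H3K27ac region.

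**Figure D1:**
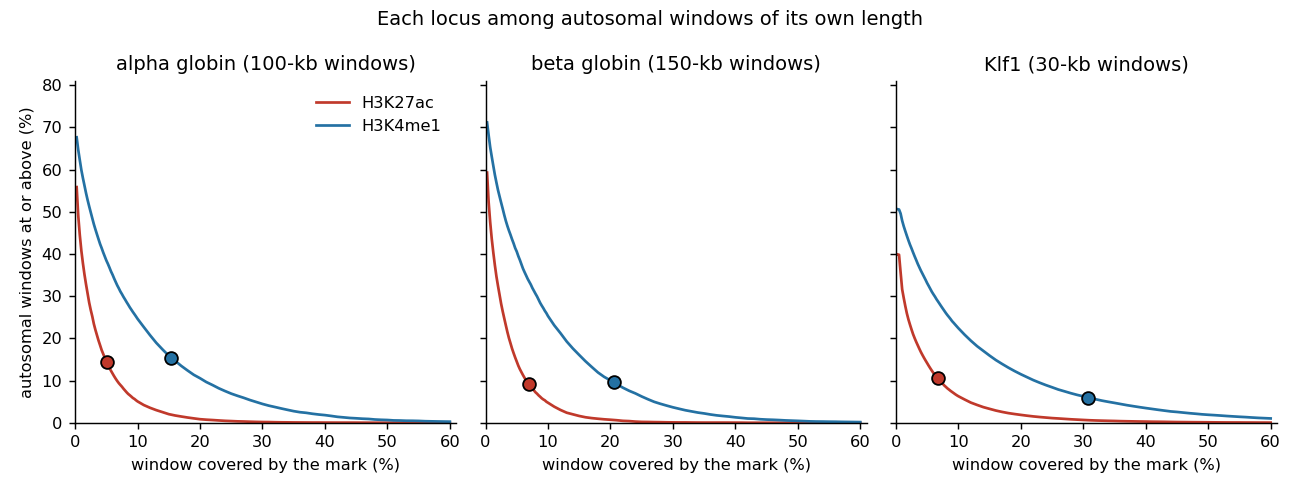
Share of autosomal windows (vertical axis, percent) covered by a mark over at least the percentage on the horizontal axis, for windows of 100, 150 and 30 kb, H3K27ac in red and H3K4me1 in blue. The filled points are the alpha globin, beta globin and Klf1 loci, which sit on curves where between 5.96% and 15.4% of windows are covered as much or more.

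Pooled over the 3 loci, the regions had median strengths near the middle of their lists, and the loci differed. Fold is the authors' own value from their peak caller, the reads at the summit over the local background, and is used here only within a list. The 32 H3K27ac regions had a median of 4.14-fold (lowest 2.66, highest 13.30), against 3.86-fold over all 93413, and 20 of the 32 lay above the list's median. The 48 H3K4me1 regions had a median of 4.32-fold (lowest 2.49, highest 11.16), against 4.12-fold over all 155027, and 26 of the 48 lay above it. By locus, in the order alpha globin, beta globin and Klf1, the H3K27ac medians were 3.84, 4.15 and 7.09-fold. The H3K4me1 medians were 3.58, 4.74 and 4.04-fold in the same order. The Klf1 median for H3K27ac rests on 3 regions. At the summit the H3K27ac regions held a median of 14 reads (8 to 44), against 13 in the whole list. The H3K4me1 regions held a median of 21 reads (11 to 52), against 20. Median widths were 396 bp for H3K27ac, against 355 bp in the whole list, and 589 bp for H3K4me1, against 687 bp. The local background was more than 1.05 times the genome-wide level at 9 of the 32 H3K27ac summits (26.2% in the whole list) and at 15 of the 48 H3K4me1 summits (36.8% in the whole list).

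**Figure D2:**
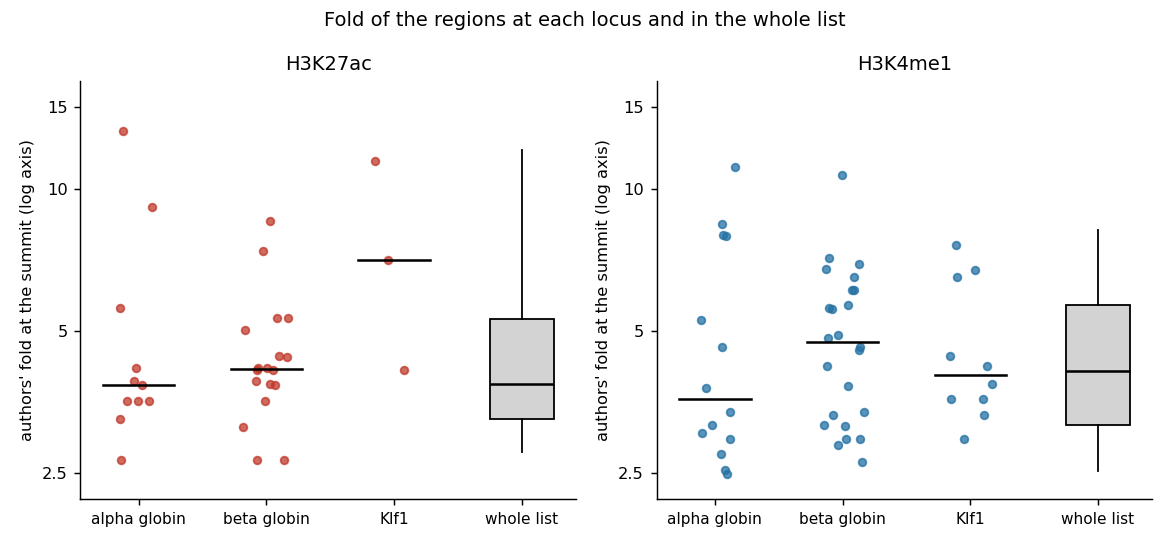
Authors' fold at the summit (vertical log axis) of each H3K27ac region (left) and each H3K4me1 region (right) at the 3 loci, with black lines at the medians. The grey box spans the quartiles of the whole list and its whiskers the 5th and 95th percentiles; the medians of the 3 loci for H3K27ac are 3.84, 4.15 and 7.09, against 3.86 in the whole list.

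At the alpha globin locus the widest groups of marked regions were a pair of clusters, with fewer regions on the side of the last limit. The first cluster spanned chr11:32120800-32128870 and held 3 H3K27ac and 3 H3K4me1 regions, where regions of either mark no more than 1 kb apart were joined. The second, at chr11:32162800-32168508, also held 3 H3K27ac and 3 H3K4me1 regions. Of 13 groups joined in this way at the locus, 4 held both marks. Those outside the clusters were chr11:32143435-32143951 and chr11:32160463-32161363, and other regions of both marks also lay outside the clusters. The highest H3K27ac region of the 3 loci lay in the second cluster, at chr11:32167139-32168212, with 13.30-fold and 44 summit reads, and 3.99% of the H3K27ac list was higher. The next in H3K27ac, chr11:32126483-32127008 in the first cluster, had 9.16-fold and 30 reads, and 8.74% of the list was higher. The others of the 5 highest were 5.61-fold at chr11:32121305-32122181, 4.17-fold at chr11:32164711-32165116 and 3.91-fold at chr11:32218399-32218825. A −log10 q of at least 5 was reached by 3 of the 11 H3K27ac regions, against 41.4% of the whole list. The count was 7 of 18 at the beta globin locus, 2 of 3 at the Klf1 locus and 12 of 32 over the 3 loci together. No interval was computed for these counts, so they do not set a locus apart from the list.

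The highest H3K4me1 region of the 3 loci lay in the first alpha globin cluster, at chr11:32122295-32126367. It had 11.16-fold, 52 summit reads and a width of 4073 bp, and 0.294% of the H3K4me1 list was higher in fold. In the second cluster, chr11:32163908-32167129 had 8.44-fold with 47 reads and chr11:32167878-32168508 had 8.0-fold with 37 reads. These 2 regions stood on either side of the 13.30-fold acetylation summit, which lay 291 bp from the nearer of them and inside neither. A further H3K4me1 region, chr11:32147021-32148129, had 7.95-fold and 42 reads and met no H3K27ac region, the nearest of which was 3069 bp away. It lay between the clusters, 19.7 kb before the strongest acetylation summit. The fifth highest was 5.27-fold at chr11:32126881-32128870, and the other 9 regions had 2.49-fold to 4.63-fold.

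Beyond the second cluster the alpha globin locus held 3 regions of each mark. From it to the last limit there were 3 H3K27ac regions, of 3.55-fold (chr11:32176666-32177007, 11 reads), 2.66-fold (chr11:32214901-32215207, 8 reads) and 3.91-fold (chr11:32218399-32218825, 14 reads). None of the 3 met H3K4me1, and they were all the alpha globin H3K27ac regions without it. The 3.91-fold region lay just above the list's median of 3.86-fold and the other 2 below it. H3K4me1 on that side had 3 regions of 3.37-fold, 3.16-fold and 2.49-fold. Between chr11:32181141 and chr11:32209208 lay 28.1 kb with no region of either mark, the longest such stretch inside the 3 loci. Whether that stretch holds the near-identical Hba-a1 and Hba-a2 copies was not determined without an mm9 annotation, and how the authors placed reads that fit several positions is not stated in these sources. The part of read placement in the gap was not tested.

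**Figure D3:**
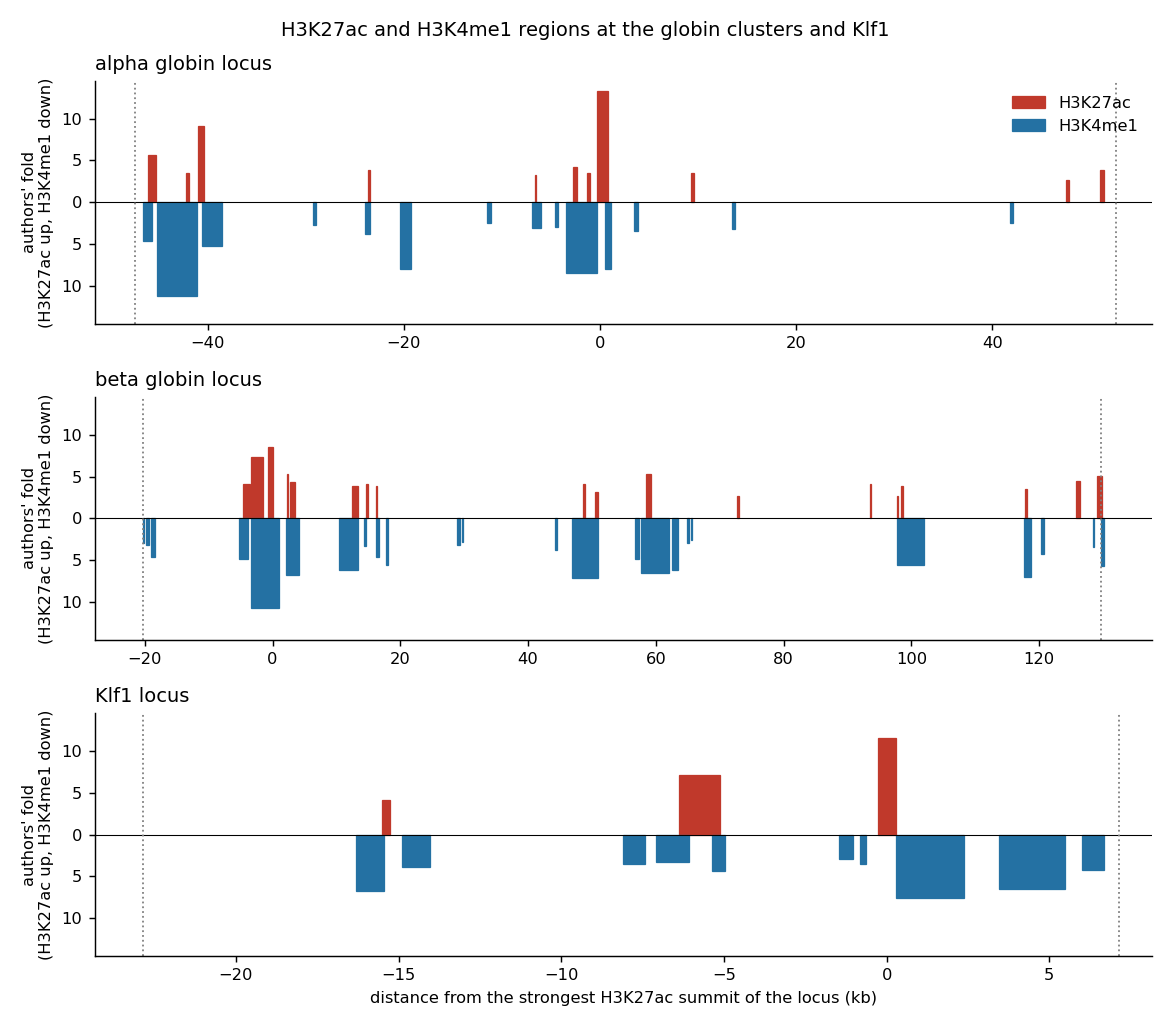
Regions of H3K27ac (red, upward) and H3K4me1 (blue, downward) at the 3 loci, with the authors' fold as bar height and the region's extent as bar width, along the distance in kb from the strongest H3K27ac summit of each locus. Dotted lines are the limits of the loci; the alpha globin locus is empty of both marks over 28.1 kb on the right, and at the beta globin locus the tallest bars of both marks stand at the same place.

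At the beta globin locus acetylation was broadest near the first limit. From chr7:110955059 to chr7:110964378 there were 5 H3K27ac and 3 H3K4me1 regions, in a pair of clusters just over 1 kb apart. The strongest H3K27ac region of the locus was chr7:110959478-110960352 with 8.57-fold and 28 reads, and 9.91% of the list was higher. Beside it, chr7:110956948-110958789 had 7.39-fold and 24 reads and was the widest H3K27ac region of the 3 loci at 1842 bp. The fold was 5.32 at chr7:110962447-110962667 and 5.32 again at chr7:111018777-111019465, and 5.02 at chr7:111089273-111090017, with 17, 17 and 16 reads. The last of these crossed the limit of the locus. The other 13 H3K27ac regions had 2.66-fold to 4.43-fold and 8 to 15 reads.

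The strongest H3K4me1 region of the beta globin locus, chr7:110956804-110961221, enclosed both of the strongest H3K27ac regions. It had 10.74-fold and 50 reads, 0.482% of the list was higher in fold, and at 4418 bp it was the widest region of the 3 loci. Its summit lay 5 bp from that of the 8.57-fold H3K27ac region. The next highest H3K4me1 regions were 7.16-fold at chr7:111007116-111011267 (33 reads) and 6.95-fold at chr7:111077926-111079029 (32 reads). They were followed by 6.79-fold at chr7:110962350-110964378 (32 reads) and 6.53-fold at chr7:111017929-111022329 (30 reads). Each of these 5 regions enclosed at least 1 H3K27ac region. The locus held 4 of the 5 H3K4me1 regions of 4 kb or more in the 3 loci. Over the whole list 3.45% of H3K4me1 regions were that wide.

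Around 50 to 60 kb from the strongest acetylation summit, the beta globin locus had broad H3K4me1 with weaker acetylation. There chr7:111007116-111011267 was 4152 bp wide and held H3K27ac regions of 4.14-fold (13 reads) and 3.13-fold (11 reads). A group at chr7:111017000-111023749 held 3 H3K4me1 regions over 6.75 kb and 1 H3K27ac region, of 5.32-fold. Near 100 kb, chr7:111057945-111062193 was 4249 bp wide with 5.59-fold, and enclosed H3K27ac regions of 2.66-fold and 3.86-fold. Its local background was 1.50 times the genome-wide level. The longest stretches with neither mark measured 20.5, 15.7 and 14.4 kb.

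Of the 18 beta globin H3K27ac regions, 4 met no H3K4me1. These were chr7:110974898-110975133 (4.14-fold, 62 bp from an H3K4me1 region), chr7:111033018-111033314 (2.66-fold), chr7:111053777-111053983 (4.17-fold) and chr7:111086081-111086642 (4.43-fold). They held 13, 8, 14 and 14 summit reads. The first limit of the locus cut an H3K4me1 region of 2.95-fold, chr7:110939924-110940177, and the last limit an H3K4me1 region of 5.69-fold, chr7:111089931-111090449.

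The 30 kb of the Klf1 locus held 3 acetylated regions, each higher in fold than the median of the list, and 15.5% of windows of that length held as many or more. The strongest, chr8:87432601-87433154, had 11.52-fold and 38 reads, and 5.64% of the list was higher. The widest, chr8:87426486-87427730, had 7.09-fold, 23 reads and a width of 1245 bp. The weakest, chr8:87417367-87417591, had 4.14-fold and 13 reads. All 3 exceeded the list's median of 3.86-fold and all 3 met H3K4me1. The nearest H3K27ac regions outside the Klf1 limits were 5.02-fold, 13.4 kb before the first limit, and 4.73-fold, 49.4 kb beyond the last. Outside the alpha globin limits they were 6.50-fold at 13.9 kb before and 5.61-fold at 15.7 kb beyond, and outside the beta globin limits 8.57-fold at 28.9 kb before and 3.25-fold at 5.11 kb beyond.

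H3K4me1 at the Klf1 locus lay beside acetylation more than under it. The strongest region, chr8:87433141-87435223, had 7.62-fold and 36 reads, was the widest of the locus at 2083 bp, and shared 14 bp with the 11.52-fold H3K27ac region. The next were 6.74-fold at chr8:87416554-87417416, 6.53-fold at chr8:87436303-87438350, 4.42-fold at chr8:87427482-87427885 and 4.21-fold at chr8:87438867-87439551. The 7.09-fold H3K27ac region ran from inside 1 H3K4me1 region (chr8:87425771-87426785, 3.32-fold, 300 bp shared) into another (chr8:87427482-87427885, 249 bp shared). None of the 10 H3K4me1 summits lay inside an H3K27ac region, against 16.8% over the whole list. With 10 regions, the exact 95% interval of that share reaches 30.8%, and the count does not separate the locus from the list.

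Most acetylated regions of the loci overlapped H3K4me1, some of them by a small part of their length. Of the 32 H3K27ac regions, 25 overlapped H3K4me1 by 1 bp or more (78.1%, exact 95% interval 60.0 to 90.7%), against 71.7% of the whole list. The count was 8 of 11 at the alpha globin locus, 14 of 18 at the beta globin locus and 3 of 3 at the Klf1 locus. Of the 48 H3K4me1 regions, 21 met an H3K27ac region (43.8%, interval 29.5 to 58.8%), against 33.6% of the whole list. The count was 7 of 14 at the alpha globin locus, 10 of 24 at the beta globin locus and 4 of 10 at the Klf1 locus. Both intervals include the share of the whole list, so neither share of the loci is set apart from the background. The intervals cover counting error only, and neighbouring regions are not independent samples.

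Over the 3 loci together, H3K4me1 regions that met H3K27ac had a higher median fold and width than those that did not. The 21 H3K4me1 regions that met H3K27ac had a median of 6.11-fold and 1332 bp, against 3.37-fold and 375 bp for the 27 that did not. The 25 H3K27ac regions that met H3K4me1 had a median of 4.17-fold and 406 bp, against 3.91-fold and 307 bp for the other 7. At the beta globin locus alone the H3K27ac medians were 4.15-fold both with and without H3K4me1. Over the whole lists the medians were 5.69-fold against 3.58-fold for H3K4me1 and 4.37-fold against 3.50-fold for H3K27ac. Median widths there were 1396 against 493 bp for H3K4me1 and 448 against 252 bp for H3K27ac, so both lists show the same direction as the loci. The fold ranges overlapped for both marks. The part of width, which by position alone favours overlap, was not tested.

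The position of H3K27ac regions relative to H3K4me1 was counted at each locus. At the beta globin locus 11 of 18 H3K27ac regions lay wholly inside an H3K4me1 region, at the alpha globin locus 5 of 11 and at the Klf1 locus 0 of 3, where the whole list had 45.8%. H3K27ac summits lay inside H3K4me1 in 13 of 18 regions at the beta globin locus, 5 of 11 at the alpha globin locus and 1 of 3 at the Klf1 locus, where the whole list had 58.2%. The exact intervals of these 3 shares, 46.5 to 90.3%, 16.7 to 76.6% and 0.840 to 90.6%, overlap each other and include the list's share. Counted from the other mark, H3K4me1 summits lay inside H3K27ac in 5 of 24 regions at the beta globin locus, 4 of 14 at the alpha globin locus and 0 of 10 at the Klf1 locus, where the whole list had 16.8%, so the order of the globin loci depends on the side counted. By length, the marks shared 77.9% of the acetylated bases at the beta globin locus, 47.4% at the alpha globin locus and 30.3% at the Klf1 locus. The Klf1 share is 0.613 kb in 3 H3K27ac regions. The share by length over the whole list is not given here, so these values do not set any locus apart from the list.

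The strongest acetylation was set beside H3K4me1. A limit of 7-fold, set after the values had been seen, gave 6 H3K27ac regions, 2 at each locus, and 14.6% of the whole list is as high. All 6 met H3K4me1, as did 92.9% of such regions in the list. Of the 26 H3K27ac regions under 7-fold, 19 met it, against 68.1% of such regions in the list. The summit lay inside H3K4me1 at the 2 beta globin regions (8.57-fold and 7.39-fold) and at the 7.09-fold Klf1 region. It lay outside H3K4me1, by 233 to 291 bp, at the 2 alpha globin regions (13.30-fold and 9.16-fold) and at the 11.52-fold Klf1 region. In the whole list 41.8% of summits at this fold lay inside H3K4me1.

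**Figure D4:**
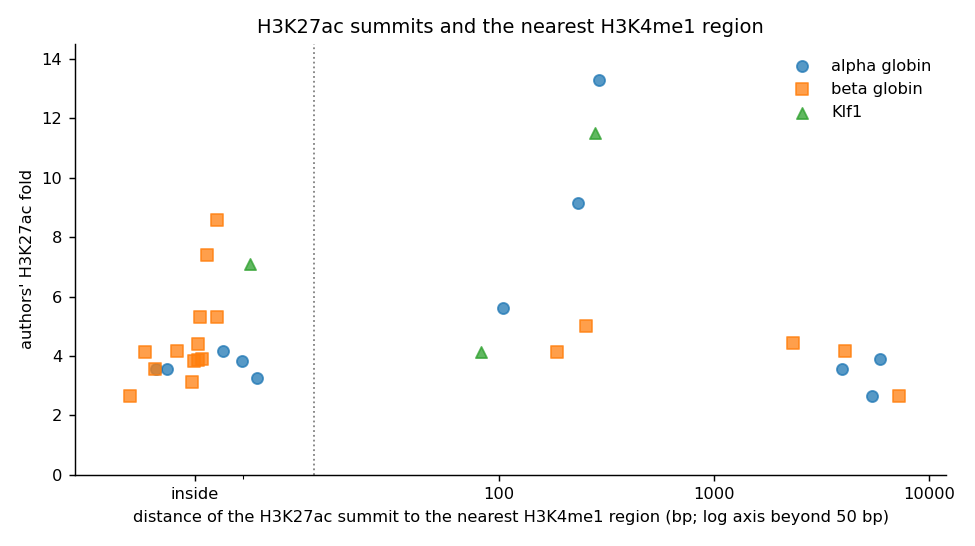
Authors' fold of the 32 H3K27ac regions (vertical axis) against the distance in bp from their summit to the nearest H3K4me1 region, where points left of the dotted line lie inside H3K4me1 and are spread sideways for visibility. Circles are the alpha globin, squares the beta globin and triangles the Klf1 locus; the 3 highest summits, of 13.30, 11.52 and 9.16-fold, stand 291, 280 and 233 bp outside H3K4me1.

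Joined over gaps of up to 12500 bp, the H3K27ac regions fell into 10 domains touching the loci, of 30221 in the genome. The largest lay at the beta globin locus, chr7:110955645-110976648, with 8 regions and 6.25 kb acetylated over 21.0 kb, and ranked 1763 by acetylated length, within the first 5.83%. The largest at the alpha globin locus, chr11:32160749-32177007, had 5 regions and 2.35 kb acetylated and ranked 5827. The 3 Klf1 regions made up 1 domain, chr8:87417367-87433154, with 2.02 kb acetylated, which ranked 6899. The domain at the last beta globin limit, chr7:111078004-111099746, ran past it and ranked 6109. None of the 10 domains was among the first 302, the top 1% of the genome.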

How the data were processed

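The deposited lists hold peaks of 1 library per mark, not pooled, from stem cells of mice aged 24 months, grouped by sample title. The submitters' processing notes name Bowtie2 2.0.6, MACS2 2.0.10.20131216 and the build mm9. For the control, duplicates, reads that fit several positions and other options, nothing is given in the sources used here. The authors' fold is a ratio, pileup at the summit over local background. Columns of −log10 p and −log10 q were deposited for each summit.

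Regions were taken where they shared at least 1 bp with the limits. Reads at the summit were recovered from fold and −log10 p, as fold = (reads + 1)/(background + 1) and p the Poisson probability of more reads; all 93413 H3K27ac and 155027 H3K4me1 summits fitted a whole number within 0.001. The genome-wide background was 2.38 and 3.75 reads, and the weakest summits held 8 and 10 reads, which limits what could be called. Overlap, joining and read recovery were tested on simulated data. Autosomes were tiled with windows of each locus's length up to the last region. Shares have exact Clopper-Pearson 95% intervals.

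The named regions were the 5 of highest fold in each locus and mark, the widest, those at a limit, and H3K27ac regions without H3K4me1. Members, lists and rules were chosen with earlier results of these data known, and the joining of both marks over 1 kb and the 7-fold limit after these values were seen. No erythroid gene list or marker list was used, since neither can be placed without an mm9 annotation. Tools were scipy 1.17.1, numpy 2.4.6, pandas 2.3.3 and matplotlib 3.10.9 under Python 3.11.15.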

Additional observations from a re-analysis of the deposited data

How the results depend on the processing

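Of 76 alternative values for the counts, shares, coverage, fold, places and domains, 45 kept the reported value within limits and 31 moved. The limits were the exact 95% interval for shares of regions and of windows and for median fold, and a factor of 1.5 for counts, coverage and ranks of domains; many windows make their interval narrow, so small changes of place count as moves. No paired analysis was possible because there is a single library for each mark. Which regions count depends most on the q threshold. At a −log10 q of at least 5, 12 H3K27ac and 31 H3K4me1 regions were left, and at 10, 6 and 19. Their median fold was then 6.35 and 5.59, and at 10 it was 8.86 and 6.74, because weak regions are removed. H3K27ac coverage of the alpha globin locus was 2.48% and 1.60% at these limits, that of the beta globin locus 3.84% and 1.81%, and H3K4me1 coverage of the Klf1 locus 16.6% at 10. The share of H3K27ac regions with H3K4me1 was 91.7% at 5 in both lists. The share of H3K4me1 regions with H3K27ac was 21.1% at 10 in both lists and 65.5% with equal numbers of regions in the lists. Shares of the whole lists at these settings are not given here, so these values cannot be compared with a background. Joining over 1 kb left 30 H3K4me1 regions, and limits 10 kb further out gave 4.05% H3K27ac coverage at Klf1. Windows at or above the loci, for H3K27ac and H3K4me1, were 10.9% and 16.9% (alpha globin), 8.38% and 11.9% (beta globin) and 15.5% and 2.65% (Klf1) by number of regions. By highest fold they were 12.6% and 2.24%, 30.0% and 4.56%, and 6.21% and 11.2%. Domains numbered 6 at a −log10 q of at least 5. For the other moves, the cause was not tested.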
